A study of Rattus norvegicus with 11 samples.

Results

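Cytokine and tumor necrosis factor (TNF) family receptors were examined in the dentate gyrus of rats with traumatic brain injury (TBI). The genes were chosen by symbol alone: interleukin receptors (Il followed by a number and r), the Tnfrsf series, the type I and type II interferon receptor chains, the receptors of colony-stimulating factors 2 and 3, and Il6st, Lifr, Osmr and Cntfr. This rule found 69 probe sets of 65 genes, among 17245 genes with a probe set of a single gene symbol. Where a gene had several probe sets (4 genes), the one with the highest mean over the 11 arrays was used. The rule on symbols also caught secreted antagonists, such as Il1rn and Il36rn. It further caught Il1rapl1 and Il1rapl2, adhesion proteins of synapses that belong to the interleukin-1 receptor family.

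The tissue was the left dentate gyrus with the hilus of adult male Sprague-Dawley rats. It was dissected 90 days after the injury or the sham operation. In 6 TBI rats, lateral fluid-percussion injury (FPI), a pulse of fluid pressure on the exposed dura, had been delivered through a left craniectomy. The 5 control rats were sham operated, with the same anesthesia and surgery but no impact. RNA of each rat was hybridized to 1 Affymetrix Rat Gene 1.1 ST array, and the authors deposited normalized signals on the log2 scale. As this was bulk tissue, fewer cells of a type and less RNA per cell cannot be told apart.

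Class I and class II cytokine receptors have no kinase of their own. Binding of the ligand brings receptor chains together, and the Janus kinases (JAKs) bound to them phosphorylate STAT transcription factors, while proteins such as SOCS3 and the phosphatase encoded by Ptpn6 restrain the signal. Receptors of interleukin-1 and interleukin-17 and most TNF receptors instead recruit adaptors that lead to NF-kB, and TNF receptors with a death domain can also start apoptosis. In the brain these receptors are found on microglia, astrocytes, endothelium and neurons, and others of them belong mainly to lymphocytes and myeloid cells.

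A gene was called near background where its mean over the 11 arrays was at or below 4.69 on the log2 scale, the 95th percentile of 206 olfactory and vomeronasal receptor genes, which the dentate gyrus is not known to use. By this measure 30 of the 65 genes were near background and 35 were above it. Il13ra2, Il23r and Il18r1 were at or below the background value of the study, 3.06, in more than 5 arrays and were not tested, which left 62 genes. Of the 30 genes near background, 8 belonged to the interleukin-1 receptor family (of 11 genes). Counted in this family were the secreted antagonists Il1rn and Il36rn, both near background. A further 6 belonged to the group of the common gamma chain and interleukin-13 receptors (of 8 genes).

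No receptor gene passed the test across all probe sets. With limma and Benjamini-Hochberg adjustment over all 17905 probe sets, 0 of the 62 genes had an adjusted p under 0.05 in either direction, where the background was 0.14% of all probe sets higher and 0.0112% lower in TBI. At an unadjusted p under 0.05, the threshold of the study, 8 genes (12.9% of 62) were higher in TBI, against 4.96% of all probe sets, and 0 were lower, against 1.87%. These 8 genes were Il10rb, Csf3r, Il13ra1, Il17rd, Tnfrsf8, Csf2rb, Tnfrsf1a and Tnfrsf17, of which Tnfrsf8 and Tnfrsf17 were near background. Under the methods' one-way analysis of variance the number was 9, with Il1rn as the additional gene. In 1 gene, Il10rb, all TBI rats lay above all controls, and such separation was seen for 0.832% of all probe sets.

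The differences were small and leaned to one side. The log2 difference, TBI minus control, was positive in 47 and negative in 15 of the 62 genes, where 10241 of all probe sets were positive and 7664 negative. Its median was 0.045 over the 62 genes and 0.011 over all probe sets. Among genes above background the median was 0.061 (26 positive and 9 negative), against 0.0065 for the 12761 probe sets above background. When each array was centred on its own median, the median difference of all probe sets went to -0.017 and that of the receptor genes to 0.016, and 4 of the 8 genes (Csf3r, Il10rb, Il13ra1 and Il17rd) still had an unadjusted p under 0.05. The differences ran between -0.10 for Tnfrsf21 and 0.37 for Il13ra1, with standard errors of 0.031 to 0.178. For 61 of the 62 genes the 95% interval lay within 0.5 of 0 on the log2 scale, the exception being Il13ra1.

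**Figure D1:**
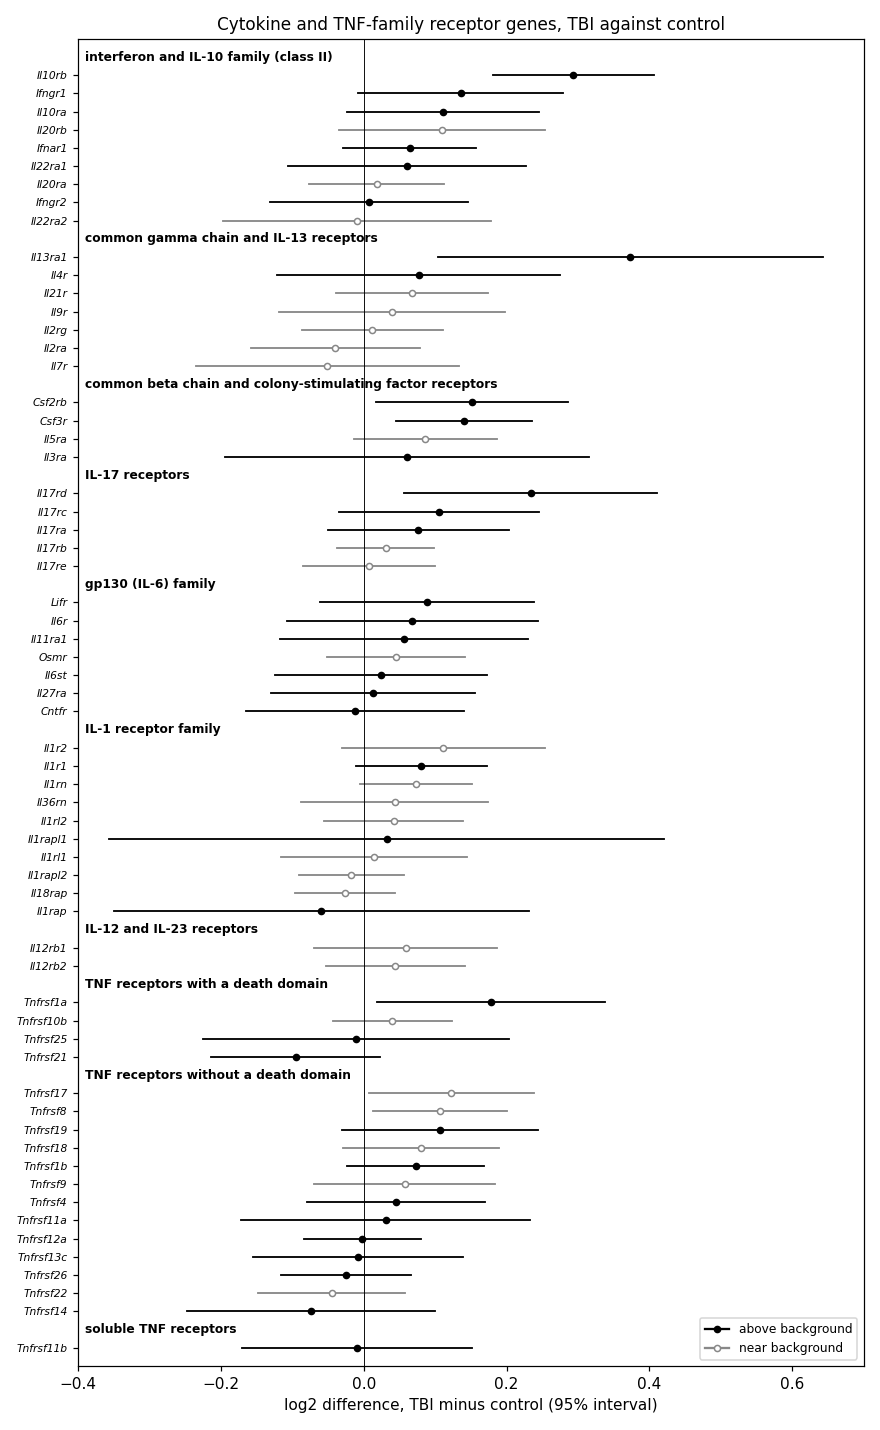
Log2 difference, TBI minus control, of each of the 62 receptor genes tested (x axis, points) with its 95% interval from limma (lines), grouped by receptor family, with genes near background in grey open symbols. Il10rb and Il13ra1 stand farthest to the right, and the intervals of 8 genes do not include 0, none of them below 0.

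Il10rb encodes the second chain of the interleukin-10 receptor, which the receptors of interleukin-22 and other relatives share. On chromosome 11 it lies beside the interferon receptor genes Ifnar1 and Ifngr2. The promoters of these 3 neighbours are shown because only the first of them stood out in TBI. Each is a 300-base window from RefSeq (GRCr8), mostly upstream of the annotated start and reaching a little into the transcript, read 5′ to 3′ on the plus strand, with motif matches in capitals.
Il10rb, chr11:44132386-44132685: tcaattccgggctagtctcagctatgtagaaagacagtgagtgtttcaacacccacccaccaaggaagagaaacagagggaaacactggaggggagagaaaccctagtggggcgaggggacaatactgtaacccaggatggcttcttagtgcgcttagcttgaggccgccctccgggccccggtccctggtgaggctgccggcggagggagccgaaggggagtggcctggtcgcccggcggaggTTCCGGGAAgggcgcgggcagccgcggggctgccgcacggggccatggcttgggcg
Ifnar1, chr11:44211519-44211818: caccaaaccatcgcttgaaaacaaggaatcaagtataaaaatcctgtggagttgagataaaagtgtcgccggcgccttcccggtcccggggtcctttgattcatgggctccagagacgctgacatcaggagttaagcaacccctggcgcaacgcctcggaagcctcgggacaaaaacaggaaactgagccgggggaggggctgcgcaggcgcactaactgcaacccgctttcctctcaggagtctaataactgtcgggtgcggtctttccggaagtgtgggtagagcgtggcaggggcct
Ifngr2, chr11:44265453-44265752: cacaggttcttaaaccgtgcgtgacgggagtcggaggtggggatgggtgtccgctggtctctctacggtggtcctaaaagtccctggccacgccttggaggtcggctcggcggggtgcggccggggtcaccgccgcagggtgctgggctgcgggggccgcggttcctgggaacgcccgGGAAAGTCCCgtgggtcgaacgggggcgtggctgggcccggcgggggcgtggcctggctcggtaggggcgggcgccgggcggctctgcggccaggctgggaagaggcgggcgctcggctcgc
The windows were searched on both strands for a STAT motif (TTCNNNGAA), an interferon-stimulated response element (GAAANNGAAA) and the NF-kB motif. The Il10rb window held TTCCGGGAA, a match to the STAT motif, from base 245. The Ifngr2 window held GGAAAGTCCC, a match to the NF-kB motif, from base 179, and the Ifnar1 window held no match. None of the matches overlapped another. Of the 65 genes, 49 had a promoter in the table. The STAT motif was in 4 of the 49 (8.16%) and in 8.87% of all 33469 promoters of this length. The response element was in 6 (12.2%), against 3.92% of all promoters, and the NF-kB motif was in 9 (18.4%), against 7.51%. The receptor shares count each gene once, by a match in any promoter listed for it, whereas the shares over all count promoters. A match is a string of letters and was not tested as a binding site.

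Il10rb had log2 signals of 6.07, 6.27, 6.33, 6.26, 6.21 and 6.20 in TBI rats, against 5.89, 6.00, 5.98, 5.82 and 5.95 in controls. The lowest TBI rat was above the highest control rat. The log2 difference was 0.29 (SE 0.052, 95% interval 0.18 to 0.41), a fold of 1.23, with an adjusted p = 0.059 from limma. In an exact permutation test of this gene alone, two-sided, p = 0.0043, where the smallest value that 6 against 5 rats can give is 0.0022. Il10rb was among the miRNA targets that the study listed because their signals were higher in these same rats, so its direction is not independent evidence. Its adjusted p was 0.15 with the methods' analysis of variance, 0.49 with the replicate number as a block and 0.074 to 0.18 without any other single rat, but 0.0044 with array weights and 0.025 without TBI rat 1, the lowest TBI rat.

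The rest of the class II family, the receptors of interferons and interleukin-10 relatives, did not pass the unadjusted threshold. Ifnar1, a chain of the type I interferon receptor, had a median of 7.89 (7.81 to 7.94) in TBI rats and 7.84 (7.70 to 7.87) in controls, a log2 difference of 0.064 (SE 0.043). Ifngr2, a chain of the interferon-gamma receptor, had a median of 8.08 (7.88 to 8.12) in TBI rats and 8.05 (7.87 to 8.20) in controls, a log2 difference of 0.0071 (SE 0.064). The groups overlapped in both neighbours of Il10rb. Ifngr1, the ligand-binding chain for interferon-gamma, had signals of 7.19, 7.19, 7.37, 7.22, 7.30 and 7.28 in TBI rats, against 6.92, 7.24, 7.15, 7.01 and 7.29 in controls, and a log2 difference of 0.14 (SE 0.066, unadjusted p = 0.063 from limma), or 0.086 without control rat 1. The ligand-binding chain of the interleukin-10 receptor, Il10ra, had signals of 4.77, 4.75, 4.80, 4.97, 4.76 and 5.05 in TBI rats, against 4.78, 4.75, 4.73, 4.62 and 4.81 in controls. TBI rats 4 and 6 were above every control, the others were among them, and the log2 difference was 0.11 (SE 0.062). The remaining 4 members, receptors of the interleukin-20 and interleukin-22 branch, had differences between -0.0094 and 0.11, and 3 of them were near background.

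Il13ra1 had the largest difference of the 62 genes. Together with Il4r it forms a receptor shared by interleukin-13 and interleukin-4. Its log2 signals were 5.72, 5.33, 5.75, 5.35, 5.34 and 5.36 in TBI rats, against 4.88, 5.53, 5.03, 4.92 and 5.15 in controls. Control rat 2 lay above 4 of the TBI rats, and the other 4 controls lay below all of them. The log2 difference was 0.37 (SE 0.12, 95% interval 0.10 to 0.64), a fold of 1.3, with an unadjusted p = 0.011 and an adjusted p = 0.50 from limma. In the exact permutation test, two-sided, p = 0.024.

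The second probe set of Il13ra1 gave a log2 difference of 0.42 (SE 0.13, adjusted p = 0.39 from limma). By number, the first stood between the probe sets of Opa1 and Plaat1, genes of chromosome 11, and the second between those of Zcchc12 and Dock11 on chromosome X, where Il13ra1 itself lies. Which RNA the first probe set measures was not tested, so the gene's level rests on an uncertain assignment, and both probe sets gave a difference of the same sign. Il13ra2, the decoy receptor for interleukin-13, was at the background value in all rats. Il4r had signals of 7.06, 7.29, 7.12, 7.44, 7.36 and 7.60 in TBI rats, against 7.20, 7.08, 7.32, 7.29 and 7.29 in controls, with a log2 difference of 0.077 (SE 0.091), so that the groups overlapped over most of their range.

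The other 5 genes of this group, the common gamma chain Il2rg and 4 chains of lymphocyte receptors that contain it, were all near background. Their log2 differences ran between -0.051 for Il7r and 0.067 for Il21r. Il2rg, the shared gamma chain, measured 3.16 to 3.26 in TBI rats and 3.07 to 3.32 in controls, barely above the background value.

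The receptors of the common beta chain and of colony-stimulating factors had the highest median difference of the families with 2 or more genes, 0.11 over 4 genes, all positive. Csf3r, the receptor of granulocyte colony-stimulating factor, had signals of 5.40, 5.54, 5.44, 5.52, 5.56 and 5.54 in TBI rats, against 5.38, 5.32, 5.47, 5.32 and 5.32 in controls. Above every control were 4 of the 6 TBI rats, and all 6 were above the control mean. The log2 difference was 0.14 (SE 0.043, 95% interval 0.05 to 0.24), with an unadjusted p = 0.0073 and an adjusted p = 0.43 from limma and an exact permutation p = 0.013.

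Csf2rb is the beta chain through which the receptors of interleukin-3, interleukin-5 and granulocyte-macrophage colony-stimulating factor signal. Its log2 signals were 4.81, 4.95, 4.95, 5.05, 4.83 and 5.12 in TBI rats, against 4.74, 4.72, 4.87, 4.79 and 4.90 in controls, close to the background limit. Again 4 of the 6 TBI rats were above every control. The same count was found in Ifnar1 and Il1r1, and a count of 5 in Il17rc, genes that did not reach the unadjusted threshold in limma. The share of all probe sets with such counts was not taken. The log2 difference was 0.15 (SE 0.062, unadjusted p = 0.031, adjusted p = 0.65 from limma). Of the alpha chains that pair with it, Il3ra had a log2 difference of 0.061 (SE 0.12) and ranged widely within both groups, 5.90 to 6.49 in TBI rats and 5.87 to 6.44 in controls. Il5ra was near background, with a difference of 0.086 (SE 0.046).

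The 5 interleukin-17 receptors all had positive differences, with a median of 0.077. Il17rd, also known as Sef, an inhibitor of fibroblast growth factor signaling as well as an interleukin-17 receptor subunit, had signals of 6.00, 6.13, 5.81, 6.18, 6.06 and 6.26 in TBI rats, against 5.79, 5.74, 6.04, 5.74 and 5.89 in controls. Control rats 3 and 5 lay within the TBI range, and TBI rats 1 and 3 within the control range. The log2 difference was 0.23 (SE 0.081, 95% interval 0.06 to 0.41), with an unadjusted p = 0.014 and an adjusted p = 0.53 from limma and an exact permutation p = 0.030. Il17rc and Il17ra, which form the receptor of interleukin-17A, had differences of 0.10 (SE 0.064) and 0.077 (SE 0.058), and that of Il17rc was 0.049 without control rat 2. Il17rb and Il17re were near background.

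**Figure D2:**
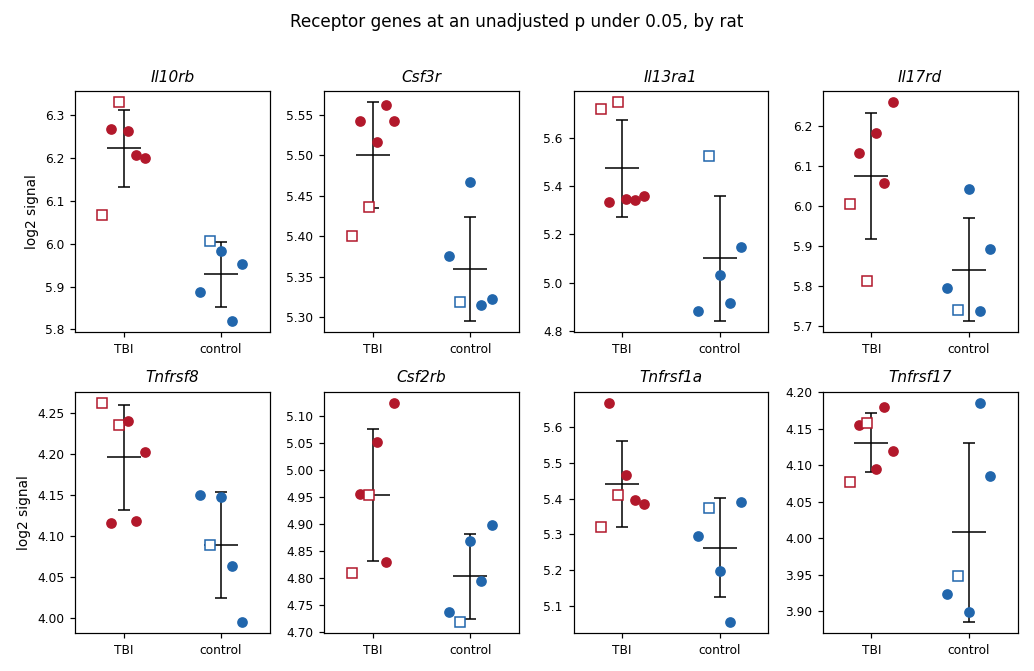
Log2 signal (y axis, not starting at 0) of the 8 receptor genes with an unadjusted p under 0.05, by rat, with TBI rats in red and controls in blue, and with mean and SD as bars (n = 6 and n = 5). Open squares mark the 3 rats that stand apart over all probe sets. The groups do not overlap in Il10rb, and in Il13ra1 the open square of a control is the only blue point among the red ones.

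The gp130 family, the receptors of the interleukin-6 group, showed no gene at the unadjusted threshold in 7. Il6st, the signal-transducing chain gp130, had signals of 8.51, 8.23, 8.43, 8.16, 8.29 and 8.22 in TBI rats, against 8.17, 8.43, 8.30, 8.25 and 8.27 in controls, and a log2 difference of 0.024 (95% interval -0.12 to 0.17). Lifr, the second chain for leukemia inhibitory factor and ciliary neurotrophic factor, had a difference of 0.089 (SE 0.069, unadjusted p = 0.22 from limma), which was 0.025 without control rat 1. The second probe set of Lifr gave a smaller difference, 0.024 (SE 0.030). Cntfr, the binding chain for ciliary neurotrophic factor, had a median of 9.07 (8.83 to 9.22) in TBI rats and 9.05 (8.99 to 9.09) in controls, with a difference of -0.013. Controls lay within a narrow band in this gene and TBI rats on both sides of it. Osmr, the oncostatin M receptor, was near background, with a difference of 0.045 (SE 0.044) that was 0.0075 without control rat 5, and Il6r, Il11ra1 and Il27ra had differences between 0.013 and 0.068.

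In the interleukin-1 receptor family, counted with the antagonists Il1rn and Il36rn, none of the 10 genes tested reached the unadjusted threshold. Il1r1, the signaling receptor of interleukin-1, had signals of 4.86, 4.77, 4.75, 4.79, 4.76 and 4.84 in TBI rats, against 4.72, 4.76, 4.75, 4.75 and 4.58 in controls, with a log2 difference of 0.081 (SE 0.042, unadjusted p = 0.079 from limma, exact permutation p = 0.026). Control rat 5 was far below the other controls, and the difference was 0.048 without it. The decoy receptor Il1r2 and the antagonist Il1rn, which both restrain interleukin-1, were near background, with differences of 0.11 (SE 0.065) and 0.073 (SE 0.036). Il1rap, the accessory chain of the interleukin-1 and interleukin-33 receptors, had a difference of -0.059 with an interval of -0.35 to 0.23. The 6 genes of the cluster on chromosome 9 (Il1r2, Il1r1, Il1rl2, Il1rl1, Il18r1 and Il18rap) had, in this order, differences of 0.11, 0.081, 0.042 and 0.014, no test for Il18r1, and -0.026. Il12rb1 and Il12rb2, the chains of the interleukin-12 receptor, were near background, with differences of 0.059 (SE 0.059) and 0.044 (SE 0.045).

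Of the TNF receptors with a death domain, Tnfrsf1a, the widely expressed receptor of TNF, had log2 signals of 5.32, 5.67, 5.41, 5.46, 5.40 and 5.38 in TBI rats, against 5.30, 5.37, 5.20, 5.06 and 5.39 in controls. The groups overlapped between 5.32 and 5.39, and TBI rat 2 was the highest of all rats. The log2 difference was 0.18 (SE 0.073, 95% interval 0.02 to 0.34), a fold of 1.13, with an unadjusted p = 0.032 and an adjusted p = 0.66 from limma and an exact permutation p = 0.035. Tnfrsf1b, the TNF receptor of immune and glial cells without a death domain, had a median of 5.42 (5.39 to 5.59) in TBI rats and 5.38 (5.36 to 5.41) in controls, with a difference of 0.073 (SE 0.044). Tnfrsf21, known as death receptor 6 and found on neurons, had the most negative difference, with signals of 9.06, 8.95, 9.10, 8.87, 9.03 and 8.84 in TBI rats, against 8.98, 9.12, 9.02, 9.11 and 9.12 in controls. Only TBI rats 2, 4 and 6 were below every control, and the log2 difference was -0.10 (SE 0.054, unadjusted p = 0.10 from limma). Tnfrsf25 had a difference of -0.011 and Tnfrsf10b, near background, one of 0.040.

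Among the 13 TNF receptors without a death domain, 2 had an unadjusted p under 0.05 and both were near background. Tnfrsf8 (CD30, a receptor of activated lymphocytes) measured 4.26, 4.12, 4.24, 4.24, 4.12 and 4.20 in TBI rats, against 4.15, 4.09, 4.15, 4.06 and 4.00 in controls, a log2 difference of 0.11 (SE 0.043, unadjusted p = 0.029, adjusted p = 0.64 from limma). Tnfrsf17 (BCMA, a receptor of plasma cells) measured 4.08, 4.15, 4.16, 4.09, 4.18 and 4.12 in TBI rats, against 3.92, 3.95, 3.90, 4.19 and 4.08 in controls, a log2 difference of 0.12 (SE 0.053, unadjusted p = 0.040, adjusted p = 0.69 from limma). Control rat 4 was the highest of all 11 rats in Tnfrsf17. In the rest, the differences ran between -0.074 for Tnfrsf14 and 0.11 for Tnfrsf19, a receptor found on neural stem cells and astrocytes. Tnfrsf12a, the receptor of the cytokine TWEAK, measured 5.48 to 5.66 in TBI rats and 5.53 to 5.59 in controls, a difference of -0.0021 with an interval of -0.08 to 0.08. Tnfrsf11b (osteoprotegerin), a secreted decoy receptor, had a difference of -0.0096 (SE 0.074), a value whose sign changed when single rats were left out.

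The ligands of these receptors were mostly near background. Of 64 ligands and antagonists listed, 55 were on the array, 36 of them near background. Of the 54 tested, 2 were higher in TBI at an unadjusted p under 0.05 and 0 were lower, against 4.96% and 1.87% of all probe sets. The median difference was 0.025, against 0.011 over all probe sets. Csf1, the growth factor of microglia, measured 6.89, 7.14, 6.86, 7.01, 6.97 and 6.95 in TBI rats, against 6.71, 6.68, 6.93, 6.71 and 6.76 in controls, a log2 difference of 0.21 (SE 0.059, adjusted p = 0.33 from limma). Control rat 3 alone reached into the TBI range. Il18 was near background, with a difference of 0.14 (SE 0.055, unadjusted p = 0.026 from limma), and so was Il24, with one of 0.098 (SE 0.049). Il10 itself, the ligand of the receptor to which Il10rb belongs, was near background, with a mean of 3.23 in both groups and a difference of -0.00077.

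In the JAK, STAT and SOCS list 2 of the 21 genes measured were higher in TBI at an unadjusted p under 0.05 and 0 were lower. Over all probe sets these shares were 4.96% and 1.87%. In this list 17 differences were positive and 4 negative, with a median of 0.059, where 10241 of all probe sets were positive and 7664 negative. Ptpn6, the phosphatase SHP-1 that acts on activated cytokine receptors, measured 5.15, 5.14, 5.31, 5.16, 5.25 and 5.26 in TBI rats, against 4.96, 4.89, 5.00, 4.96 and 5.14 in controls, a log2 difference of 0.22 (SE 0.051, adjusted p = 0.18 from limma). Stat3, the main STAT of the gp130 and interleukin-10 receptors, measured 7.41, 7.41, 7.30, 7.35, 7.35 and 7.31 in TBI rats, against 7.06, 7.31, 7.30, 7.17 and 7.16 in controls, a log2 difference of 0.16 (SE 0.049, adjusted p = 0.43 from limma). Control rats 2 and 3 reached the lowest TBI rats in this gene. Stat5a, a STAT of the common beta and gamma chains, was near background, with a difference of 0.11 (SE 0.057). Of the 31 adaptor and NF-kB genes measured, 3 were higher (Ikbkb, Nfkb1 and Traf2, each with an adjusted p above 0.6) and 0 were lower, against the same 4.96% and 1.87%. Of these 31 differences, 25 were positive. The 8 TNF receptors known by other symbols, such as Fas, Cd40 and Ngfr, included no gene at the unadjusted threshold, and 6 of them were near background. Their lowest unadjusted p values were 0.21 for Cd27, 0.23 for Fas and 0.25 for Ltbr, all from limma. Of 8 other cytokine receptors measured, Cd74, a receptor of macrophage migration inhibitory factor and the invariant chain of class II antigen presentation, had a log2 difference of 0.48 (SE 0.16, unadjusted p = 0.010 from limma), and Gfral, near background, one of -0.19 (SE 0.084, unadjusted p = 0.045). Ghr, the growth hormone receptor, followed with a difference of -0.26 (SE 0.21).

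**Figure D3:**
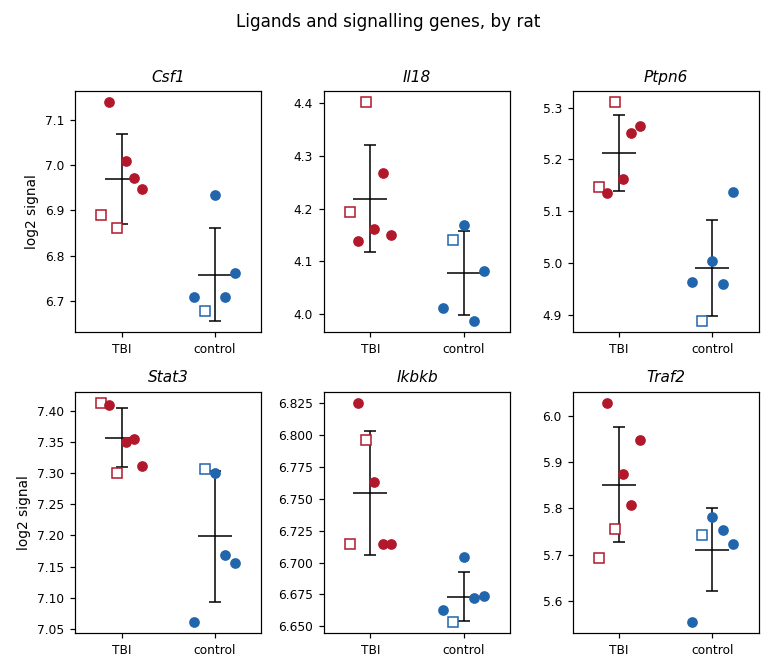
Log2 signal (y axis, not starting at 0) by rat of 2 ligands, 2 genes of the JAK and STAT list and 2 of the adaptor and NF-kB list that had an unadjusted p under 0.05, with TBI rats in red and controls in blue, and mean and SD as bars (n = 6 and n = 5). Open squares mark the 3 rats that stand apart. The groups do not overlap in Ikbkb, and overlap in the other genes.

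Markers of the cells that carry these receptors differed in part between the groups. At an unadjusted p under 0.05, 4.96% of all probe sets were higher and 1.87% lower. A count of 1 in a list rests on a single gene. Prox1, a marker of dentate granule cells, averaged 9.31 ± 0.070 in TBI rats and 9.27 ± 0.11 in controls (SD, n = 6 and n = 5), and of the 8 granule cell markers only Tdo2 was near background. Of these markers 4 had positive and 4 negative differences, 0 were higher and 1 was lower at an unadjusted p under 0.05, Pdyn with a log2 difference of -0.41 (SE 0.16, unadjusted p = 0.023, adjusted p = 0.62 from limma). In the astrocyte list 8 differences were positive and 3 negative, and 5 of 11 genes were higher at an unadjusted p under 0.05. Among these were Gfap, with a log2 difference of 0.83 (adjusted p = 1.4e-05 from limma), and Cd44, near background, with one of 0.41 (adjusted p = 0.049 from limma). The summed level of the astrocyte list, on the log2 scale, was 12.8 to 12.9 in TBI rats and 12.6 to 12.9 in controls. Of 13 microglia and macrophage genes, 3 were higher and 1, Aif1, was lower, with a summed level of 10.4 to 10.7 in TBI rats and 10.0 to 10.8 in controls. Cd68, a lysosomal protein of phagocytes that was near background, had a difference of 0.58 (adjusted p = 0.14 from limma) without overlap of the groups. Endothelial genes were higher in 2 of 6 and pericyte genes in 1 of 7, oligodendrocyte genes differed at this threshold in 0 of 7, and interneuron genes were lower in 5 of 8, with Pvalb at an adjusted p = 0.0057 from limma. None of 10 lymphocyte genes and none of the 5 tested neutrophil and monocyte genes reached the threshold, 7 of the 10 and all 7 measured neutrophil and monocyte genes were near background, and S100a8 was at the background value in all rats. The part of these markers in the receptor differences was not tested.

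Over all probe sets, TBI rats 1 and 3 and control rat 2 stood apart on a single component that held 63.9% of the variance within groups. Each array's median lay between 5.26 and 5.35. Of the 62 receptor genes, these 3 rats were above all other rats of their own group in 5 (Il1rapl1, Il1rap, Il13ra1, Il7r and Il6st) and below them in 9, where the shares over all probe sets were 19% and 12.3%. Il1rapl1 had the widest spread within groups of all receptor genes, an SD of 0.333, with signals of 6.81, 6.13, 6.82, 6.05, 6.11 and 6.15 in TBI rats, against 5.99, 6.78, 6.24, 6.30 and 6.26 in controls. The same 3 rats were the only ones above 6.5 in this gene, and the difference between the groups was 0.032 (SE 0.18). In Il1rap they measured 8.19 and 7.85 in TBI rats 1 and 3 and 8.21 in control rat 2, against 7.48 to 7.72 in the other TBI rats and 7.64 to 7.82 in the other controls. The SD within groups had a median of 0.117 in genes above background and 0.074 in genes near it.

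**Figure D4:**
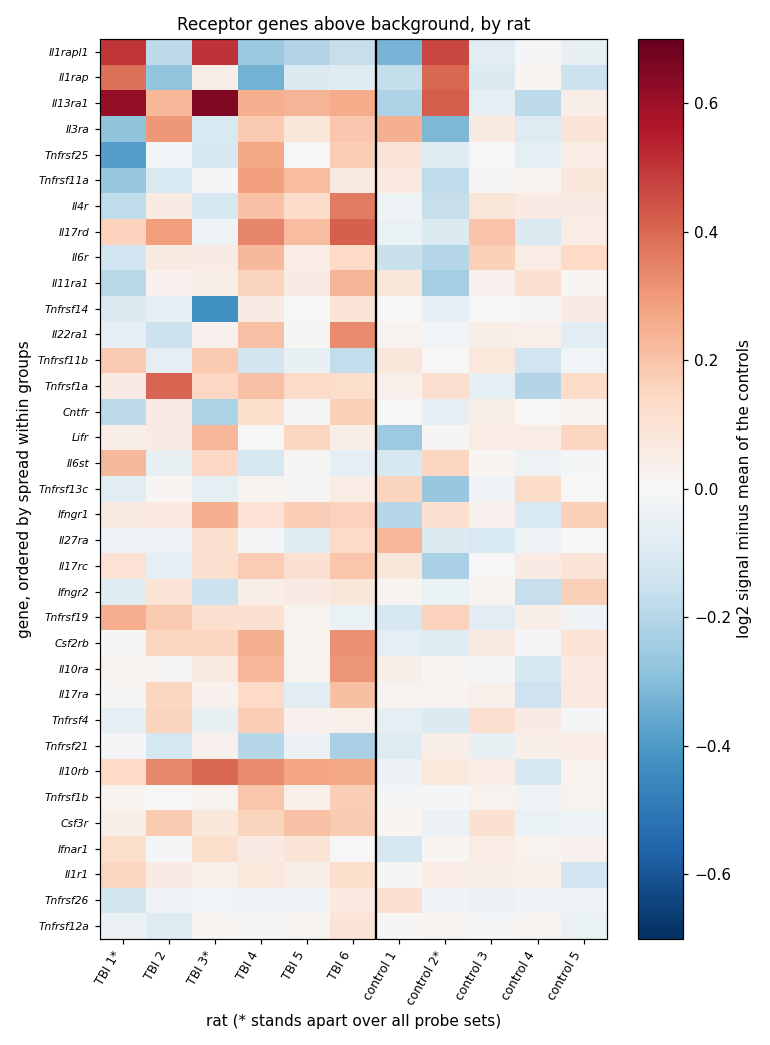
Log2 signal minus the mean of the controls (color) of the 35 receptor genes above background (rows, from the widest to the narrowest spread within groups), for each TBI rat and then each control (columns). TBI 1, TBI 3 and control 2, marked with asterisks, share their color in the top rows. The row of Il10rb is red in all 6 TBI rats, and so are others, among them Il13ra1, Csf3r and Tnfrsf1a. Only in Il10rb do all TBI rats lie above every control.

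Without these 3 rats, 4 TBI rats were compared with 4 controls. In this comparison 2 of the receptor genes had an adjusted p under 0.05, where 0.997% of all probe sets were higher and 0.518% lower. The 3 rats were picked from these same values. Among them was the only control to overlap the TBI rats in Il13ra1. The p-values of this comparison are therefore a description and not a test. Il10rb had a log2 difference of 0.32 (SE 0.044, adjusted p = 0.013 from limma) and Il13ra1 one of 0.35 (SE 0.057, adjusted p = 0.025 from limma). In Il13ra1 the remaining TBI rats lay at 5.33 to 5.36 and the remaining controls at 4.88 to 5.15. At an unadjusted p under 0.05, 10 genes were higher, against 9.76% of all probe sets, 6 of them among the 8 named above, and 1, Tnfrsf21, was lower, against 10.4%, with a difference of -0.14 (SE 0.053). Il17rd and Csf3r had differences of 0.29 (adjusted p = 0.073) and 0.17 (adjusted p = 0.076), and Tnfrsf1a one of 0.24 (adjusted p = 0.15), all from limma. The share of all probe sets past these thresholds was also larger in this comparison than over all 11 rats.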

How the data were processed

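Left dentate gyrus RNA of 6 TBI and 5 sham-operated control rats was measured on 1 array per rat. The authors deposited log2 signals made with the Robust Multi-array Average algorithm (the submitters' processing notes name oligo 1.30.0, the methods another version). Following the methods, values under 3.06, the lowest in the study's result table, were set to 3.06 (487 values among the probe sets tested, 2 of them in the receptor genes tested), 739 probe sets not above it in at least 6 arrays were dropped, and probe sets needed exactly 1 gene symbol (18644 of 29214, with 962 of several symbols and 9608 unnamed). limma 3.58.1 in R 4.3.3 (lmFit, eBayes) was fitted to the 17905 that remained, and p-values were adjusted across them by Benjamini-Hochberg (threshold 0.05). The fit was tested on simulated data with independent noise for each rat and probe set. Such data lack the component that probe sets share here. Single genes were also tested over all 462 splits of the rats. All 65 symbols were matched to RefSeq. Named were genes with an unadjusted p under 0.05 or no overlap, the 2 lowest p of each of 10 families and the 3 lowest of each pathway list, and further genes for their role. Genes and lists were chosen with earlier results of these data known. The number of arrays limits the precision. Python 3.11.15, pandas 2.3.3 and matplotlib 3.10.9 were used for promoters and plots. Alternatives were no floor or filter, a stricter filter, centred or renormalized arrays, an intensity trend, array weights, analysis of variance, a replicate block, means over probe sets, and leaving out rats.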

Additional observations from a re-analysis of the deposited data

Results flagged for a closer look

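In 38 groups of rats (19 receptor genes, TBI and control), a rat far from all others of its group was looked for, and 4 were found. Chance gives about 1 in 20 for normally distributed values without ties, and these 19 genes were picked partly by low p. Il17rc was lowest in TBI rat 2, at 4.965 on the log2 scale, with the other TBI rats at 5.127 to 5.223. The same gene was lowest in control rat 2, at 4.801, with the other controls at 5.028 to 5.116. Il1r1 was lowest in control rat 5, at 4.581, against 4.719 to 4.764 in the other controls. Il12rb1, near background, was lowest in control rat 3, at 3.982, against 4.001 to 4.008 in the other controls, a gap far smaller than the range of the TBI rats. Of those other controls 3 shared the value 4.008, so the rate of 1 in 20 does not apply to this gene.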

How the results depend on the processing

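Under 21 alternatives, 11 of them leaving out 1 rat, the 19 receptor genes chosen by the rule for named genes kept their direction and their side of the adjusted threshold in 382 comparisons, passed the threshold in 4, and changed sign in 6, all for Tnfrsf11b. The number of receptor genes higher at an adjusted p under 0.05 was 0, but 1 with array weights (Il10rb, 0.30 on the log2 scale), 2 without TBI rats 1 and 3 and control rat 2, and 0 to 1 when single rats were left out (1 without TBI rat 1). The number higher at an unadjusted p under 0.05 was 8, but 4 with centred arrays and 4 with the replicate number as a block. With array weights it was 11, of which 6 were among the 8. When single rats were left out it was 5 to 8 (5 without TBI rat 4 or without control rat 4). The number lower was 0, but 1 with array weights, 1 without the 3 rats, and 0 to 1 when single rats were left out (1 without TBI rat 3). Except without the 3 rats, the share of all probe sets was not counted under these alternatives. The difference of Tnfrsf11b was 0.023 with the block and ran between -0.048 and 0.023 when single rats were left out, positive without TBI rats 2, 4 or 6 or control rats 1 or 3. The median difference of the receptor genes, 0.045, was 0.016 with centred arrays, 0.029 after a second quantile normalization and 0.037 to 0.065 when single rats were left out. Leaving out 1 rat also moved the small differences of Il12rb1 (0.022 to 0.083), Il12rb2 (0.023 to 0.069) and Il21r (0.042 to 0.090). Il10rb and Il13ra1 had an unadjusted p under 0.05 in all 21 alternatives, Csf3r and Il17rd in 20, Tnfrsf1a in 15, Csf2rb in 13, Tnfrsf8 in 11 and Tnfrsf17 in 9, and the adjusted p of Il10rb ran between 0.0044 and 0.49. The cause of these shifts was not tested. Rats of equal number share only that number: the deviations of the 5 pairs correlated at -0.65, -0.50, -0.41, -0.26 and 0.11.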

Other observations

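In many receptor genes several rats had exactly the same deposited value, also above the background value of 3.06. A value shared by 3 or more rats was found in 17 of the 62 genes tested, 13 near background and 4 above it, and in 26.2% of all probe sets tested (44.1% of those near background and 18.9% of those above it). In Il17re, 8 of the 11 rats, 4 TBI and 4 control, measured 4.34. In Il2ra and Tnfrsf26, 6 rats shared a value. For such genes the SD and the tests of the groups rest on the few rats that depart from the shared value. None of the 8 receptor genes with an unadjusted p under 0.05 had a value shared by 2 rats.

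Il1rn, the interleukin-1 receptor antagonist, was among the genes with 5 equal values, and its log2 signals were 3.50, 3.58, 3.48, 3.58, 3.48 and 3.48 in TBI rats, against 3.44, 3.48, 3.48, 3.42 and 3.39 in controls. Its unadjusted p was 0.064 in limma, and it passed that threshold in the one-way analysis of variance.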
